A study of Mus musculus with 3072 samples.

Results

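Vwf-expressing HSC are the sorted stem cell wells in which the RNA of von Willebrand factor, the adhesive protein that platelets and endothelial cells store and secrete, was read at a CPM of 50 or more. CPM is the count of a gene per 1000000 counts of the well, or of the sum over wells. Of 768 wells labelled HSC, 679 passed the filter on counts, genes and mitochondrial RNA, and 277 of these 679 wells (40.8%) were Vwf-expressing. The other 402 kept HSC wells served for comparison, mouse by mouse. The members were chosen by their Vwf value, so Vwf itself is described here and not tested.

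The wells came from bone marrow of 8 wild-type C57BL/6 mice that had received stem cells carrying clonal barcodes by transplantation. All 8 mice share that genotype, strain and transplantation. The 4 control mice were sampled at week 32 after transplantation and the 4 mice labelled platelet_depleted at week 28. Treatment, week and the experiment code in the sample titles coincide in all 8 mice, so their effects cannot be told apart. The labels name HSC and MkP without spelling them out; in this field they stand for hematopoietic stem cells and megakaryocyte progenitors. The antibodies that defined the HSC gate were not given in the sources used here, nor was the agent that removed platelets.

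Hematopoietic stem cells are a mixed population. A part of them carries RNA of platelet genes, Vwf among them, and such cells are known from transplantation work in mice to be biased towards platelets. Megakaryocytes, the cells that shed platelets, make von Willebrand factor, store it in alpha-granules, and display the glycoprotein Ib-IX-V complex that binds it. Stem cells without such RNA are on the whole more prone to lymphoid output.

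The depth of kept HSC wells ran from 28152 to 5315421 counts (median 1326554), and the median well had 5916 genes. Summed per mouse, the Vwf-expressing wells held 22861583 to 84606396 counts and the other wells 30287609 to 96686689. In 1 Vwf-expressing well of depleted mouse 4 the 8 neutrophil genes of the marker list made up 38847 CPM, against at most 453 CPM in any other kept HSC well.

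Vwf was either well read or nearly absent in most wells. Among the 277 Vwf-expressing wells it ran from 50.1 to 1400 CPM, with a median of 318 CPM and quartiles of 166 and 522 CPM. The median such well held 334 Vwf reads and the lowest 13. Of the 402 other wells, 246 had no Vwf read and 156 had some, of which 125 had 1 to 10 reads. The 3 wells just inside the threshold stood at 50.1, 55.9 and 57.3 CPM and the 3 just outside at 48.4, 47.8 and 46.8 CPM. With a threshold of 20 CPM the mean share of Vwf-expressing wells was 46.4% in control and 41.8% in depleted mice. With 100 CPM it was 36.6% and 35.4%.

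**Figure D1:**
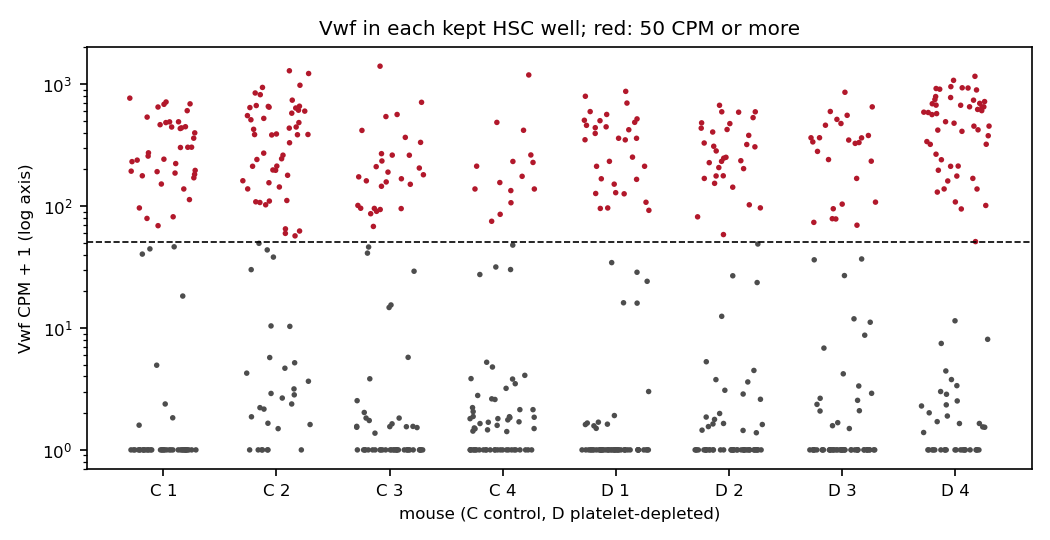
Vwf in each of the 679 kept HSC wells, as CPM + 1 on a log axis, by mouse (C control, D platelet-depleted). Each point is 1 well; the dashed line marks 50 CPM, and 246 of the wells below it sit at 0 Vwf reads.

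Summed per mouse, Vwf stood at 313, 385, 251 and 310 CPM in the Vwf-expressing wells of control mice 1 to 4. In depleted mice 1 to 4 it stood at 357, 307, 315 and 514 CPM. In the other HSC wells the sums ran from 1.36 to 7.94 CPM over the 8 mice. These levels follow from the choice of wells. In the MkP sums of the 5 mice analysed here Vwf was at 160 to 251 CPM, and 37.4% to 52.6% of the MkP wells of a mouse reached 50 CPM.

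The share of HSC that expressed Vwf varied widely between mice of the same treatment. In control mouse 1 it was 40 of 84 wells (47.6%, 95% Clopper-Pearson interval 36.6% to 58.8%). In control mouse 2 it was 51 of 80 (63.8%, 52.2% to 74.2%), the highest of all mice. Control mouse 3 had 29 of 79 (36.7%, 26.1% to 48.3%). Control mouse 4 had 15 of 76 (19.7%, 11.5% to 30.5%), the lowest of all mice, and its interval does not reach those of control mice 1 and 2. In depleted mice 1, 2 and 3 the shares were 32 of 90 (35.6%, 25.7% to 46.3%), 32 of 92 (34.8%, 25.1% to 45.4%) and 26 of 86 (30.2%, 20.8% to 41.1%). Depleted mouse 4 had the highest share of the depleted mice, 52 of 92 (56.5%, 45.8% to 66.8%), and its interval overlaps that of depleted mouse 1. The intervals cover counting error only.

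Whether loss of platelets went with a different share of Vwf-expressing HSC was compared over mice. Control mice had a mean share of 41.95% ± 18.5 and depleted mice one of 39.3% ± 11.7 (SD, n = 4 mice per group), and the groups overlapped throughout. The difference, depleted minus control, was -2.68 percentage points (two-sided exact permutation p = 0.8286; the smallest p of this design is 0.0286). It turned to 4.58 points without control mouse 2, to 0.33 points without depleted mouse 3 and to 3.64 points with a threshold of 200 CPM. Without control mouse 4 it was -10.1 points and without depleted mouse 4 -8.43 points, with exact permutation p = 0.343 and 0.514. With this spread between mice, no direction of the share could be stated.

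**Figure D2:**
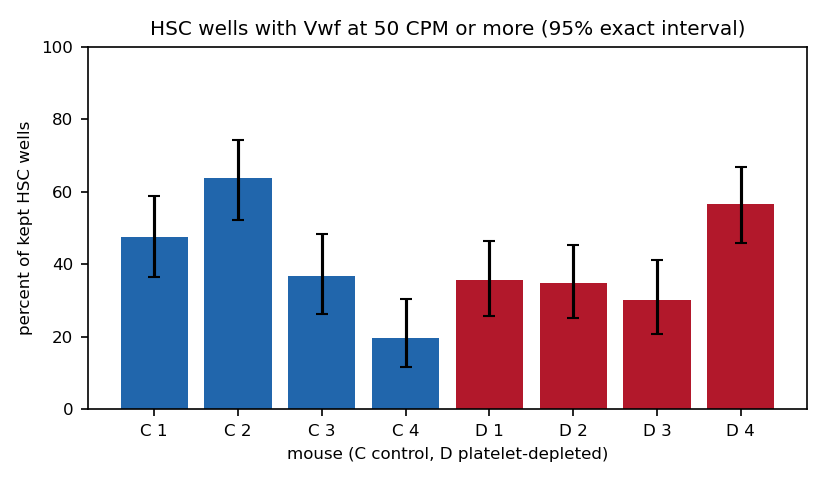
Percent of kept HSC wells with Vwf at 50 CPM or more in each mouse (blue control, red platelet-depleted), with 95% Clopper-Pearson intervals. The shares run from 19.7% to 63.8% in control mice and from 30.2% to 56.5% in depleted mice.

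The next question was which other genes distinguished the Vwf-expressing wells from the other HSC of the same mouse. Among the genes that rose with Vwf were 6 of the platelet and megakaryocyte list, led by Clu and Cavin2. Cd34, a surface glycoprotein of progenitors, fell, with the cytoskeletal gene Vim and the transcription factor gene Runx2. Of 14508 genes tested, 36 passed (0.248%), 18 higher (0.124%) and 18 lower (0.124%) in Vwf-expressing HSC. The test was edgeR's quasi-likelihood test on sums per mouse with the mouse as a block, at a Benjamini-Hochberg adjusted p under 0.05. Each of the 36 genes had the same direction in 8 of 8 mice, a pattern that 1.01% of all tested genes showed upwards and 1.28% downwards. The 8 Vwf-expressing sums lay wholly above the 8 other sums in 6 tested genes (0.0414%) and wholly below them in 11 (0.0758%). At an unadjusted p under 0.05 there were 1127 genes (7.77%).

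Clu encodes clusterin, a secreted chaperone also stored in platelet alpha-granules. In the Vwf-expressing sums it had a lowest, median and highest value of 58.6, 149 and 466 CPM, and in the other HSC 5.73, 22.98 and 58.8 CPM. The highest other sum lay just above the lowest Vwf-expressing sum, and the ranges were otherwise apart. By edgeR its log2 fold change was 2.80 (SE 0.27, adjusted p = 0.0106), the largest rise among the genes that passed. At 50 CPM or more it was found in 129 of 277 Vwf-expressing wells and 32 of 402 others.

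Cavin2, a protein of caveolae that is abundant in platelets, stood at 152, 236 and 271 CPM (lowest, median, highest) in Vwf-expressing HSC and at 29.5, 46.7 and 156 CPM in the others. The highest other sum, of a control mouse, lay just above the lowest Vwf-expressing sum, of a depleted mouse. The log2 fold change was 1.997 (SE 0.30, edgeR adjusted p = 0.033). It was at 50 CPM or more in 66.2% ± 9.59 of Vwf-expressing wells and 26.1% ± 11.4 of others (SD, n = 8 mice).

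The platelet adhesion receptors were represented by Itgb3 and Gp9. Itgb3, integrin beta 3, the partner of Itga2b in the fibrinogen receptor, had 41.7, 71.2 and 140.3 CPM in Vwf-expressing HSC and 19.5, 29.1 and 56.6 CPM in the others (log2 fold change 1.17, SE 0.16, edgeR adjusted p = 0.029). Gp9, a subunit of the complex that binds von Willebrand factor, had 41.1, 103 and 126.9 CPM against 21.3, 52.5 and 64.1 CPM (0.99, SE 0.13, adjusted p = 0.029). Both ranges overlapped between the groups, and the rise was present within every mouse. Mef2c, a transcription factor of megakaryocytes and lymphoid progenitors, rose by 0.72 (adjusted p = 0.033), from 224 ± 49.9 to 363 ± 56.6 CPM (SD, n = 8). Mmrn1, multimerin 1, an alpha-granule protein, rose by 0.44 (adjusted p = 0.033), from 308 ± 93.4 to 413 ± 115 CPM.

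Promoters are shown for the 3 platelet protein genes with 1 start each in the RefSeq table of GRCm38.p6, because these genes rose together with Vwf. Each runs from 250 bases before to 50 after the start, 5′ to 3′ on the gene's plus strand. Capitals mark GATAA, the core read by GATA factors, and GGAAG, a core read by ETS factors, on either strand (TTATC and CTTCC on the other).
Gp9, chr6:87777820-87778119: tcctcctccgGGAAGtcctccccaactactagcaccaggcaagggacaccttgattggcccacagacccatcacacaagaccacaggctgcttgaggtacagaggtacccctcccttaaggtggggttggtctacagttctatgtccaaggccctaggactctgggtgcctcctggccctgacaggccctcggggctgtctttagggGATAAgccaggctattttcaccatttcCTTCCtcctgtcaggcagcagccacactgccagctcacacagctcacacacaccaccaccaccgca
Mmrn1, chr6:60944067-60944366: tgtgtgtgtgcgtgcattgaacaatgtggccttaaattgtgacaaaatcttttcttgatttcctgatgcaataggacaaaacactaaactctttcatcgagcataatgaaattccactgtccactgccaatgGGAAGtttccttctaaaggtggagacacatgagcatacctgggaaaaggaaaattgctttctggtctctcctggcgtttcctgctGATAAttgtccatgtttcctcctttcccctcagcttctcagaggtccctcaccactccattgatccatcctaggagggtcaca
Cavin2, chr1:51288876-51289175: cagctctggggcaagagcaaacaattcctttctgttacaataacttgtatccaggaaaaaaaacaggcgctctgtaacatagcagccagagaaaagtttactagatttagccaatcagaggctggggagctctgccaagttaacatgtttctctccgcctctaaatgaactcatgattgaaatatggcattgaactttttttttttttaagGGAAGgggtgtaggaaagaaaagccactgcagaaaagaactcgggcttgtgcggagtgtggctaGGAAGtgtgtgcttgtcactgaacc
The Gp9 promoter held 1 GATAA and 2 GGAAG matches, that of Mmrn1 1 of each, and that of Cavin2 2 GGAAG and 0 GATAA matches, and none of the matches overlapped another. Of all 32851 promoters of this length, 25.4% held GATAA and 71.4% held GGAAG on either strand. A match describes the sequence and does not show binding.

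Over the whole platelet and megakaryocyte list, 58 of 66 genes other than Vwf were tested. Of these 6 passed, all higher (Clu, Cavin2, Itgb3, Gp9, Mef2c and Mmrn1), 45 had a fold change above 0 and the median log2 fold change was 0.37. Over all genes tested the median was -0.04, and 6431 of 14508 were above 0. By role, the median was 1.25 over 11 alpha-granule protein genes. That value is the fitted one of F5, coagulation factor V, at 4.36 ± 3.66 and 2.71 ± 4.19 CPM (SE 3.10, edgeR adjusted p = 0.985), and the role's sums had medians of 2278 and 1622 CPM. The median was 0.63 over the 6 tested genes of the glycoprotein Ib-IX-V and collagen receptors and 0.34 over 6 integrin and tetraspanin genes. It was 0.34 over 14 thrombin, ADP and thromboxane receptor and signalling genes. Megakaryocyte transcription factor genes with the kinase gene Jak2 had 0.31 over 11, and cytoskeleton and granule biogenesis genes 0.40 over 10. The list was chosen with earlier results of these data known, and its counts are a description.

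Other platelet genes did not pass. Gp5, another subunit of the von Willebrand factor receptor, was at 62.9 ± 37.2 CPM in Vwf-expressing HSC and 58.2 ± 18.1 in the others (log2 fold change -0.07, edgeR adjusted p = 0.990). Gata1, the factor of erythroid and megakaryocyte maturation, was at 48.2 ± 39.6 and 30.7 ± 11.8 CPM (0.41, adjusted p = 0.883). Selp, P-selectin, was at 245 ± 97.0 and 184 ± 67.8 CPM, higher in 7 of 8 mice (0.38, adjusted p = 0.449). It reached 50 CPM in 69.5% ± 9.57 of Vwf-expressing and 49.8% ± 6.79 of other wells, higher in 8 of 8 mice, a difference that was not tested. Srgn, the granule proteoglycan serglycin, was at 921 ± 97.0 and 976 ± 132 CPM, and Nfe2, a factor of platelet release, at 526 ± 75.8 and 613 ± 136 CPM (-0.20, adjusted p = 0.449). Gp1bb was read at very low levels, 1.54 ± 0.85 and 0.35 ± 0.30 CPM. Tbxa2r, the thromboxane receptor, just missed the threshold at an adjusted p of 0.0519, with 81.1 ± 22.02 against 34.1 ± 11.5 CPM.

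Pf4 and Itga2b, platelet factor 4 and the surface antigen CD41, differed more in their sums than in their shares of wells. Pf4 had 89.4, 375 and 1331 CPM in Vwf-expressing sums and 29.5, 56.9 and 146 CPM in the others (log2 fold change 2.53, SE 0.47, edgeR adjusted p = 0.0821), higher in 7 of 8 mice. Yet Pf4 was at 50 CPM or more in 69 of 277 Vwf-expressing wells and 116 of 402 others, 26.3% ± 8.12 against 29.4% ± 14.8 over mice. Of its reads in Vwf-expressing HSC, 5 wells held 46.4%, and of those in other HSC 5 wells held 32.0%. Itga2b had 343 ± 188 against 178 ± 37.9 CPM (0.75, adjusted p = 0.565), and 43.1% ± 14.02 against 42.004% ± 7.67 of wells at 50 CPM or more. In the groups' shares these genes thus differed from Clu and Cavin2, whose shares were higher in Vwf-expressing wells in 8 of 8 mice. No test was made on the shares.

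**Figure D3:**
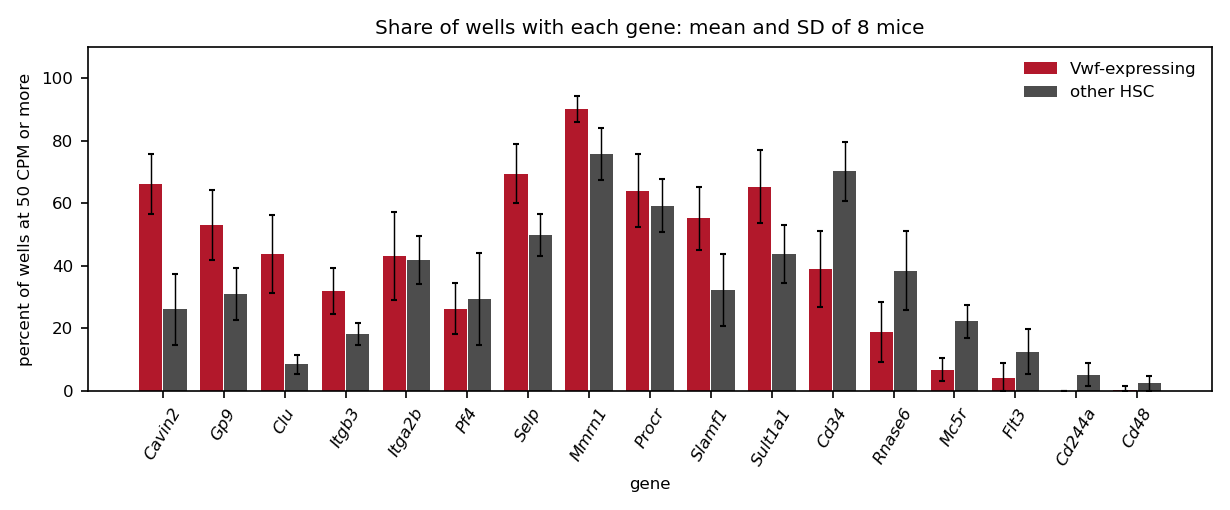
Percent of wells with a gene at 50 CPM or more, in Vwf-expressing (red) and other HSC (grey), as mean and SD of 8 mice. Cavin2, Gp9 and Clu are found in more Vwf-expressing wells and Cd34 in fewer, whereas the means of Pf4 and Itga2b differ by less than their SD.

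Of 39 HSC genes tested, 2 rose and 1 fell, where 0.124% of all tested genes passed in each direction. Their median log2 fold change was 0.16 with 23 above 0, against -0.04 and 6431 of 14508 over all genes. Sult1a1, a sulfotransferase gene enriched in stem cells, rose by 1.49 (SE 0.16, edgeR adjusted p = 0.0147), with 252, 397 and 598 CPM against 65.4, 147 and 183 CPM, ranges that did not overlap. Apoe, the lipid carrier apolipoprotein E, rose by 0.66 (adjusted p = 0.029), from 738 ± 164 to 1168 ± 283 CPM. Procr, the protein C receptor used to sort stem cells, was at 190 ± 52.2 and 172 ± 49.5 CPM (0.16, adjusted p = 0.827). Slamf1, encoding CD150, was at 129 ± 57.3 and 71.8 ± 24.2 CPM, higher in 6 of 8 mice (0.82, adjusted p = 0.415). It reached 50 CPM in 55.2% ± 10.02 of Vwf-expressing and 32.4% ± 11.5 of other wells, higher in 7 of 8 mice, which was not tested. The transcription factor genes Mecom (161 ± 71.2 and 120 ± 22.6 CPM), Hlf (156 ± 63.2 and 206 ± 82.5 CPM) and Gata2 (579 ± 96.3 and 474 ± 118 CPM) did not pass. The most abundant genes of the list, Adgrg1, an adhesion receptor, at 2232 ± 425 and 2144 ± 251 CPM, and Txnip, a thioredoxin inhibitor, at 1524 ± 253 and 1640 ± 209 CPM, did not pass either.

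Cd34 was the gene of the HSC list that fell. It had 43.1, 116 and 174.5 CPM in Vwf-expressing sums and 258, 417 and 571 CPM in the others, so that the highest Vwf-expressing mouse lay below the lowest other sum. Its log2 fold change was -2.005 (SE 0.28, edgeR adjusted p = 0.0328). Cd34 was at 50 CPM or more in 38.98% ± 12.2 of Vwf-expressing wells and 70.3% ± 9.48 of others, lower in 8 of 8 mice. Kit, the stem cell factor receptor, was at 648 ± 138 and 783 ± 188 CPM (-0.26, adjusted p = 0.411).

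The multipotent and lymphoid progenitor list has 17 genes, of which 9 were tested. By edgeR 0 passed, with 5 at an unadjusted p under 0.05. All 9 had a fold change below 0, as had 8077 of all 14508 genes tested. The expression filter also let in genes read in the other HSC and hardly in Vwf-expressing HSC, such as Cd48. For such genes the direction follows from the filter and is no result. Of the genes not tested, Satb1 was lower in 7 of 8 mice, and Ccr7 was higher in 5 and lower in 1. The median of the 9, -2.45, was that of Wfdc17, a gene of few reads. The sums of the list were closer, with medians of 340 CPM in Vwf-expressing and 450 CPM in other HSC. Flt3, the receptor that marks multipotent progenitors, was at 8.63 ± 9.32 CPM against 27.1 ± 14.1 in the others, lower in 8 of 8 mice (log2 fold change -3.53, SE 1.34, edgeR adjusted p = 0.520). It was at 50 CPM or more in 9 of 277 Vwf-expressing wells and 51 of 402 others. Cd48, a SLAM family protein absent from most stem cells, was at 0.51 ± 1.33 and 5.66 ± 5.99 CPM (adjusted p = 0.244), with 1 and 11 wells at 50 CPM or more. Their reads came from few wells: 5 wells held 69.5% of Flt3 and 92.6% of Cd48 reads of Vwf-expressing HSC. Ikzf1, the lymphoid factor Ikaros, was at 87.4 ± 24.2 and 120 ± 38.9 CPM (-0.42, adjusted p = 0.362).

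Cd244a, another SLAM family gene, was singled out after its values were seen, since its level is under the 10 CPM of the naming rule. It passed the test (edgeR adjusted p = 0.0147) with 0.067 ± 0.16 CPM in Vwf-expressing HSC and 13.2 ± 12.6 CPM in the others. Cd244a entered the test through the other HSC, where it is higher, so its direction follows from the expression filter. At 50 CPM or more it was found in 0 of 277 Vwf-expressing wells, which for counting error over wells alone allows a share of up to 1.08%, and in 20 of 402 others. The 277 wells held 38 reads of it, in 5 wells. In the 402 others 28 wells had a read of it, and 5 wells held 49.4% of their reads. No fold change is given, since the Vwf-expressing side rests on so few reads. With the mean number of genes per well as a covariate beside the block it was the only gene that passed.

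The other genes that fell had varied functions. Mc5r, a melanocortin receptor, had 4.26, 10.3 and 23.1 CPM in Vwf-expressing HSC and 27.9, 53.3 and 66.9 CPM in the others (a log2 fold change of -2.25, SE 0.36, at an edgeR adjusted p of 0.0497), with no overlap. Vim, the intermediate filament vimentin, had 75.6, 97.7 and 136 CPM against 175, 216 and 246 CPM (-1.03, SE 0.13, adjusted p = 0.029), also with no overlap. Runx2, a Runt family transcription factor, was at 33.5 ± 9.96 against 87.2 ± 39.8 CPM (-1.31, adjusted p = 0.0328). Rnase6, a secreted ribonuclease of myeloid cells, was at 28.1 ± 18.4 against 69.8 ± 25.3 CPM (-1.41, adjusted p = 0.0431). Ctla2a, Ptpre, Tes, Pcgf5, Anxa1, Eef2k, Ramp1, Foxp1, Abcg1 and Arid1a fell by 0.57 to 0.99 on the log2 scale. Abcg1, a cholesterol exporter, was the most precise of them, at 130 ± 25.7 against 201 ± 28.6 CPM (-0.63, SE 0.06, adjusted p = 0.0106). I730030J21Rik and Cmtm7 fell too.

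Further genes that rose were Efna1, an ephrin ligand, at 43.1 ± 13.2 against 18.5 ± 8.19 CPM (log2 fold change 1.30, SE 0.19, edgeR adjusted p = 0.033), and Mylk, the myosin light chain kinase, at 72.3 ± 26.5 against 38.5 ± 11.3 CPM (0.89, adjusted p = 0.0477). Dusp3, a phosphatase, Cttn, the actin-binding protein cortactin, Trim47, Art4, Nomo1 and Nt5c3 rose by 0.56 to 0.95. Pdzk1ip1 and 1810073O08Rik also passed.

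**Figure D4:**
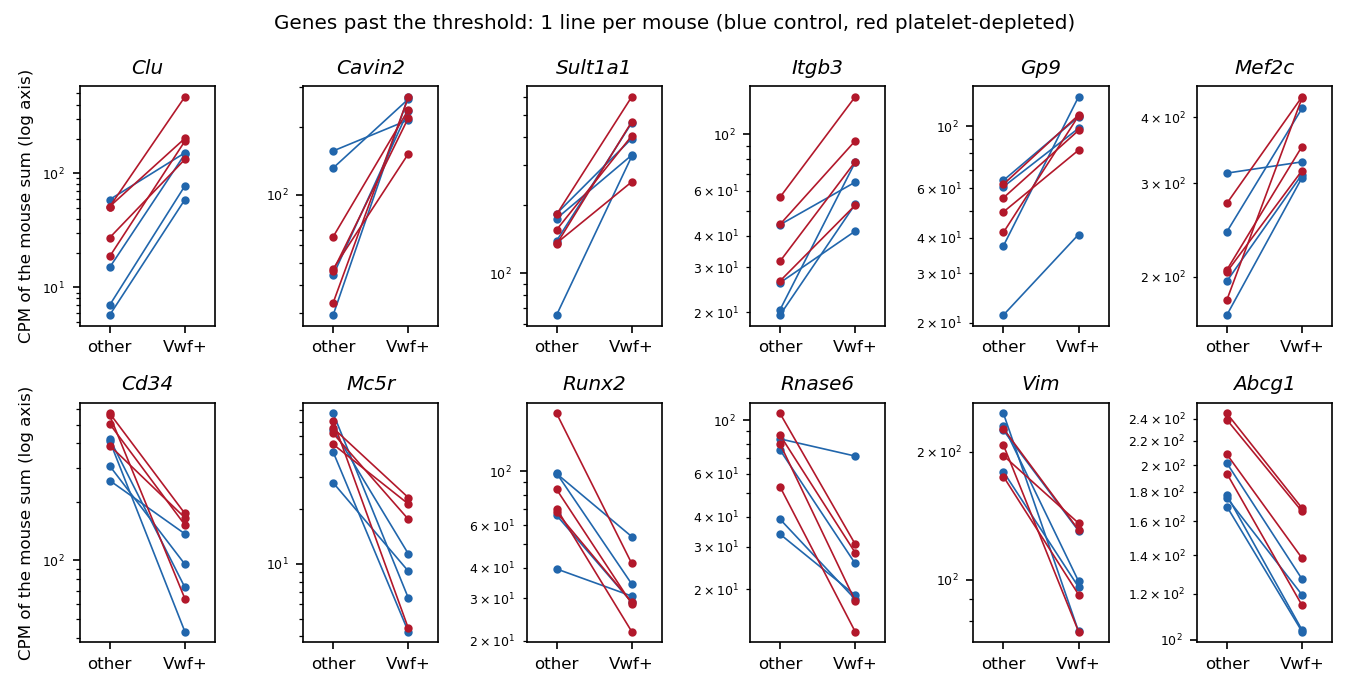
CPM of each mouse's sum (log axis) in other HSC and in Vwf-expressing HSC (Vwf+), for 12 genes past the threshold; each line joins the groups of 1 mouse (blue control, red platelet-depleted). All 8 lines rise in the upper row and fall in the lower row.

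Of 22 tested genes that are reported to be higher in stem cells of old mice, 4 passed, all higher (Clu, Sult1a1, Itgb3 and Mmrn1, of which Clu, Itgb3 and Mmrn1 also stand in the platelet list and Sult1a1 in the HSC list), 20 were above 0 and the median log2 fold change was 0.72. Over all 14508 genes tested, 18 passed upwards, 44.3% were above 0 and the median was -0.04. Among the others, Fhl1, a LIM domain protein, was at 130 ± 34.3 against 82.3 ± 20.6 CPM, higher in 8 of 8 mice (0.67, edgeR adjusted p = 0.0694).

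No gene passed in the remaining lists. The medians of log2 fold change were -0.53 over 20 mitosis genes, of which 3 were above 0, and 0.06 over 20 DNA replication genes, of which 13 were above 0. Over all genes tested 44.3% were above 0. None of the mitosis genes had an unadjusted p under 0.05 by edgeR. Their sums overlapped widely, at 46.6 to 993 CPM in Vwf-expressing HSC (median 427) and 170 to 1188.5 CPM in the others (median 495). Mki67, a marker of cycling cells, was at 33.1 ± 27.1 and 43.985 ± 37.2 CPM (-0.70, edgeR adjusted p = 0.932). The myeloid list had a median of -0.14 over 9 genes, the erythroid list 0.38 over 14, quiescence genes 0.10 over 18, immediate early genes 0.10 over 16 and interferon response genes 0.03 over 23. Csf3r, the receptor of granulocyte colony-stimulating factor, was at 66.6 ± 27.3 against 122 ± 44.7 CPM, lower in 7 of 8 mice (-0.89, adjusted p = 0.231), and Lyz2, lysozyme, at 574 ± 63.8 and 520 ± 37.3 CPM. Mcm6, a subunit of the replicative helicase, was at 489 ± 151 and 409 ± 145 CPM. The AP-1 genes Jun (1124 ± 451 and 1079 ± 420 CPM) and Fos (973 ± 390 and 1083 ± 536 CPM) varied widely between mice in both groups. Aqp1, aquaporin 1 of the erythroid list, was the nearest to the threshold, with 69.5 ± 17.1 against 30.9 ± 10.6 CPM, higher in 8 of 8 mice (1.24, adjusted p = 0.0533). Cdk6, a kinase of the G1 phase, was at 323 ± 145 and 446 ± 130 CPM (-0.55, adjusted p = 0.385). Over 13 mitochondrially encoded genes the median was -0.12.

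**Figure D5:**
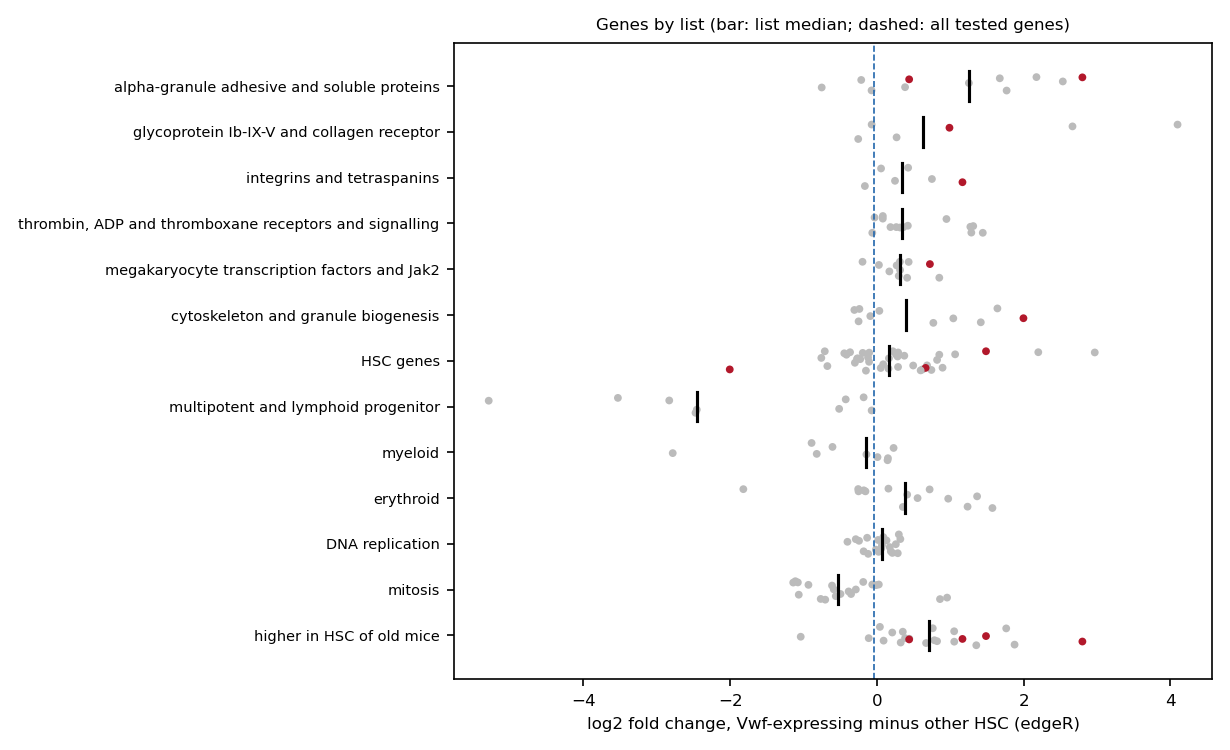
Log2 fold change of each tested gene, Vwf-expressing minus other HSC, by list; red points passed the threshold, black bars are list medians and the dashed line is the median of all tested genes (-0.04). The medians of the 6 platelet roles lie to the right of the line. All 9 tested of the 17 multipotent and lymphoid progenitor genes lie to its left.

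Because endothelial cells also make von Willebrand factor, their marker genes were examined. Cdh5, the defining cadherin of endothelium, had 0 reads in all 277 Vwf-expressing wells, as had Sele, Lyve1 and Gpihbp1. In the other HSC wells Sele and Lyve1 also had 0 reads, Cdh5 9 and Gpihbp1 102. Kdr had 3810 reads in Vwf-expressing and 1482 in other HSC (9.09 ± 5.62 and 3.83 ± 4.93 CPM, edgeR adjusted p = 0.707). Flt1 had 160 and 0 reads, Plvap 371 and 805 and Stab1 14 and 410. Of the 5 genes of the list that were tested, 3 had a fold change above 0 and 2 below 0. The 16 genes together summed to 126 to 331 CPM per mouse in Vwf-expressing HSC (median 247) and 151 to 220 CPM in the others (median 182), and none of the 5 tested passed. Tie1, a receptor that stem cells also express, gave most of it, at 209 ± 50.8 and 172 ± 22.9 CPM. Cldn5, a tight junction gene, was at 15.5 ± 14.9 and 1.23 ± 2.16 CPM (edgeR adjusted p = 0.615), with 39.7% of its reads in 1 well. The sums of the lists of B cells (9.80 to 57.7 CPM and 20.96 to 70.1 CPM), T and NK cells (6.39 to 50.9 and 17.1 to 134), mast cells and basophils (0.087 to 12.3 and 1.16 to 50.03) and macrophages (2.27 to 223 and 0.16 to 69.5) are given for Vwf-expressing and other HSC in turn. The macrophage sum of 223 CPM was that of control mouse 2, with Fcna at 69.3, C1qb at 36.9 and Vcam1 at 30.2 CPM, and its part in the results was not tested beyond leaving that mouse out. The neutrophil list reached 919 CPM in 1 Vwf-expressing sum through the single well named above. Without that well, 35 genes passed, all among the 36.

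The number of genes past the threshold was lower with any 1 mouse left out. It was 12, 4, 9 and 9 without control mouse 1, 2, 3 and 4, and 3, 4, 2 and 7 without depleted mouse 1, 2, 3 and 4. Each of these fits also has fewer sums, and the part of that in the lower number was not tested. With all mice the number was 1 with the mean number of genes per well as a covariate and 542 by DESeq2. In each of these fits all 36 genes had the same direction and an unadjusted p under 0.05.

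Set beside MkP, the genes that rose with Vwf showed more than 1 pattern. In 8 of the 18 the mean MkP sum lay above that of Vwf-expressing HSC. Cavin2 was at 69.2 CPM in other HSC, 233 in Vwf-expressing HSC and 312 in MkP, Itgb3 at 33.7, 75.3 and 124, Gp9 at 49.1, 96.3 and 138 and Mef2c at 224, 363 and 508. In another 8 of the 18 the MkP sums lay below the other HSC. Sult1a1 was at 146, 403 and 1.93 CPM in that order and Efna1 at 18.5, 43.1 and 0.72. Mmrn1 of the platelet list was among these 8 too, at 308, 413 and 197 CPM. Clu, at 48.5 CPM in MkP against 178 in Vwf-expressing HSC, belonged to neither. Of the 18 genes that fell, Mc5r alone had a higher mean in MkP (67.7 CPM) than in other HSC (50.5). HSC means are over 8 mice, 4 of each treatment, and MkP means over 5, control mouse 2 and depleted mice 1 to 4. MkP wells of the other control mice were not analysed here, and no test was made.

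Of 6 other readouts of the wells, 0 passed the test after adjustment. Vwf-expressing wells held a mean of 1442400 ± 333860 counts and other wells 1318200 ± 342290 (SD, n = 8 mice), higher in 7 of 8 mice (two-sided exact sign-flip permutation p = 0.0312, adjusted p = 0.125 over 6 readouts). The mean number of genes was 6130 ± 530.0 and 5929 ± 654, higher in 6 of 8 mice (exact permutation p = 0.0469, adjusted p = 0.125). With wells of over 10000 genes kept, both differences passed, at an adjusted p of 0.0469 by the exact permutation test. Mitochondrial RNA made up 3.72% ± 0.57 and 3.81% ± 0.50 of counts (exact permutation, adjusted p = 0.141). With each well thinned to 100000 counts, 56 genes passed against other HSC, 29 of them among the 36.

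Clonal barcodes, the sequences that mark the descendants of one transplanted cell, were read in most wells of both groups. A barcode was present in 89.6% ± 9.64 of Vwf-expressing and 85.2% ± 8.80 of other wells (exact sign-flip permutation, adjusted p = 0.497, higher in 6 of 8 mice). The authors' Shannon index, a score of barcode diversity within a well, averaged 0.24 ± 0.22 and 0.30 ± 0.27 (adjusted p = 0.125 by the exact permutation test) and was 0 in every barcoded well of control mouse 4. More than 1 effective barcode was recorded in 69 of 248 barcoded Vwf-expressing wells (27.8%) and 109 of 347 others (31.4%). Mki67 reached 50 CPM in 8.04% ± 5.75 of Vwf-expressing and 7.79% ± 8.41 of other wells (exact permutation, adjusted p = 0.906). Among wells with a clonal barcode only, 16 genes passed in the comparison with other HSC.

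Within the Vwf-expressing HSC, depleted and control mice were compared gene by gene. Of 14449 genes tested, 0 passed (0%) in edgeR's quasi-likelihood test, with 817 at an unadjusted p under 0.05 and 87 past the threshold by DESeq2. Trim47, a ubiquitin ligase of the genes that rose with Vwf, was at 319, 224, 239 and 232 CPM in control mice 1 to 4 and at 418, 422, 529 and 538 CPM in depleted mice 1 to 4, groups that did not overlap (log2 fold change 0.79, SE 0.15, edgeR adjusted p = 0.362). Of all 14449 genes, 498 (3.45%) had every depleted mouse above every control mouse and 468 (3.24%) the reverse. Hlf was at 104 ± 44.8 CPM in control and 208 ± 7.58 CPM in depleted mice (SD, n = 4 each; 0.88, adjusted p = 0.847), also without overlap. Clu was at 108 ± 47.4 and 248 ± 149 CPM (1.06, adjusted p = 0.847), and Pf4 at 580 ± 509 and 342 ± 238 CPM (-0.81, adjusted p = 0.921).

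Whether the difference between Vwf-expressing and other HSC itself differed with treatment was tested as an interaction. Of 16747 genes, 0 passed (0%), with 637 at an unadjusted p under 0.05 in edgeR's quasi-likelihood test and 136 past the threshold by DESeq2. For Clu the difference between treatments in the log2 fold change was -0.21 (SE 0.53) and for Cavin2 0.41 (SE 0.60). For Cd34 it was 0.14 (SE 0.58) and for Trim47 0.09 (SE 0.25). Each of these 4 had an edgeR adjusted p of 1.0.

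Among the Vwf-expressing wells alone, those above their mouse's median Vwf were set against the rest. Of 12588 genes, 0 passed (0%) in edgeR's quasi-likelihood test, with 392 at an unadjusted p under 0.05 and 96 past the threshold by DESeq2. Of the 36 genes that passed against other HSC, 35 were tested here. In edgeR's test 27 of these 35 had the same direction, and 3 had it with an unadjusted p under 0.05. The matching shares over all genes were not counted. The 35 genes were also called in these same wells, which Vwf had chosen, so the counts are a description. Clu was at 245 ± 159 CPM in the upper and 111 ± 82.1 CPM in the lower wells, higher in 8 of 8 mice (log2 fold change 1.23, SE 0.17, adjusted p = 0.368). Selp, at 305 ± 95.5 and 192 ± 121 CPM, and Gp5, at 82.4 ± 44.1 and 42.9 ± 36.8 CPM, were also higher in 8 of 8 mice without passing (adjusted p = 0.9996 for both by edgeR). Of other platelet genes, Cavin2 was higher in 5 and Gp1bb in 4 of 8 mice. The share of all 12588 genes that were higher in 8 of 8 mice was not counted, so nothing is read from this pattern. Sult1a1 was at 351 ± 127 and 459 ± 139 CPM, higher in 2 of 8 mice.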

How the data were processed

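Single cells sorted from bone marrow into lysis buffer were made into Smart-seq2 libraries, per the labels' protocols. These carry no molecular identifiers, so counts are amplified reads. Trim Galore 0.5, STAR 2.6.0 and HTSeq 0.6.1 are named in the submitters' processing notes; the genome build and the annotation were not given in the sources used here. Gene expression was deposited as raw whole-number counts in 1 matrix, and 107 symbols on more than 1 row were summed. Of its 3070 columns, 1343 were not used here. The authors' table of wells gives barcode counts and the Shannon index, a score.

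Wells with at least 20000 counts, 1000 to 10000 genes and at most 20% mitochondrial counts were kept. No doublet caller was run, and 0 kept wells repeated another in total, genes and Vwf count. Vwf was left out of every gene test. Counts were summed per mouse and group and tested with edgeR 4.0.16 in R 4.3.3 (TMM, default expression filter). Mice were taken from the code in the sample titles and numbered 1 to 4 within a treatment. The pairing of Vwf-expressing with other HSC is the mouse; deviations of its paired sums correlated at 0.0978 to 0.266 over 9437 genes. DESeq2 1.42.0 and limma 3.58.1 served as alternatives. The standard error of a fold change is its size over the square root of F. CPM values are plain, without TMM scaling. In simulated data on 13765 genes 33 of 100 genes changed by a log2 fold change of 1 and 57 of 100 changed by 2 were recovered in the comparison with other HSC, with 3 false calls of 93.

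Genes were named by rule: the 15 largest rises and falls that passed, with at least 10 CPM and the same direction in 7 of 8 mice, leaving out unnamed gene models, a fixed set of stem cell and platelet genes, and from 18 lists each gene that passed and the most abundant ones. From the fixed set, 1 gene is not reported here. Members and lists were chosen with earlier results of these data known. The lists cover platelet, HSC, multipotent and lymphoid progenitor, myeloid, erythroid, DNA replication, mitosis, quiescence, immediate early, interferon, aged stem cell and mitochondrial genes and markers of endothelial, mast, neutrophil, B, T or NK cells and macrophages. Pf4, Tbxa2r, Fhl1 and Aqp1 did not pass and are given as values. Tbxa2r and Fhl1 were chosen after their values were seen.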

Additional observations from a re-analysis of the deposited data

Results flagged for a closer look

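Among 74 groups of 4 mice examined, 3 had 1 mouse set apart from the others by Dixon's criterion, where chance gives about 1 in 20. In Vwf-expressing HSC, Trim47 was at 319 CPM in control mouse 1, above the other control mice. Rnase6 was at 71.1 CPM in control mouse 4, above the others. Ramp1 was at 88.01 CPM in control mouse 2, below the others. The flags do not cover every gene named above. In Vwf-expressing HSC, Hlf was at 203, 204, 205 and 219 CPM in depleted mice 1 to 4. Flt3 was at 0.068, 0.035, 0.0 and 13.6 CPM there in control mice 1 to 4. Neither was flagged.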

How the results depend on the processing

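All 36 genes that passed between Vwf-expressing and other HSC kept their direction in each alternative that tested them, but the number past the threshold moved from 36 to 542 by DESeq2, 68 with wells of equal weight (limma), 56 with wells thinned to 100000 counts, 16 without the expression filter, 16 with barcoded wells only (chosen after seeing the data), 7 at a threshold of 200 CPM, 4 against wells with no Vwf read, and 2 to 12 with 1 mouse left out. Paired by mouse, 36 passed; without the replicate block it was 19, and with the block and genes per well as a covariate 1. Fewer mice or wells were part of several of these alternatives; for the others the cause was not tested. DESeq2 gave 87 genes between treatments, 136 for the interaction and 96 between upper and lower Vwf wells, where edgeR gave 0, and 0 to 1, 0 and 0 to 1 with 1 mouse left out. The share difference between treatments ran from -10.1 to 4.58 points with 1 mouse left out and was 3.64 points at 200 CPM. The difference in Mki67 wells was 0.25 points, -0.30 at a threshold of 20 CPM and -0.79 to 1.82 with 1 mouse left out. With wells over 10000 genes kept, the differences of 237540 counts and 493 genes per well passed. Genes that did not pass changed sign: Gp5 from -0.07 to 0.11 and 0.36 at 100 and 200 CPM, 0.012 at 20 CPM, 0.11 against wells with no Vwf read, 0.027 with equal weight, 0.14 without the block, 0.63 with the covariate, 0.012 thinned, 0.067 in barcoded wells and -0.26 to 0.10 with 1 mouse left out; Mecom to -0.21 with the covariate; Mki67 to 0.32 against wells with no Vwf read and 0.047 with wells over 10000 genes kept. Of the genes with few reads, Cd48 and Gp1bb had standard errors of 1.34 and 0.93 on the log2 scale.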
